A study of Rattus norvegicus with 12 samples.

Results

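Neurotrophic factors are secreted proteins that keep neurons alive and guide their growth, and the genes examined here are 9 of that system, picked by name from a table of 30562 genes. Ntf3 (neurotrophin-3) and Bdnf (brain-derived neurotrophic factor) are neurotrophins, while Gdnf (glial cell line-derived neurotrophic factor) and Artn (artemin) belong to the GDNF family. The receptors are Ngfr (p75NTR, which binds all neurotrophins), Ntrk2 (TrkB, the receptor kinase for BDNF), Ntrk3 (TrkC, that for neurotrophin-3), Gfra1 (the binding co-receptor for GDNF) and Gfra3 (that for artemin). Of the 9 genes, 7 held enough counts to be tested and 2, Gdnf and Artn, did not.

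The study sequenced poly(A) RNA from 12 rat sciatic nerve stumps, 3 in each of 4 groups, in a study of conduits intended to relieve pain. Control stumps had no conduit named in the labels, and what they received instead was not given. CC4:2 and CC4:4 stumps came from truncated cone conduits of a different gradient, and VP4:2 stumps from the 4:2 conduit loaded with verteporfin, a compound known to keep YAP, a coactivator that answers to mechanical cues, from its TEAD partners. The labels gave no strain, age or time after surgery, and did not say whether replicates were separate animals. The p-values therefore cover only the spread seen among these stumps, some of which may be technical.

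In an injured nerve the neuron cell bodies lie outside the tissue sampled, and Schwann cells, the glia that wrap axons, are a known source of both the factors and p75NTR. Neurotrophins bind Trk kinases and p75NTR, while GDNF family ligands bind a GFRA co-receptor that recruits the kinase RET. Schwann cells cut off from axons are known to raise Ngfr and Gfra1, and Ntrk2 in nerve is known mainly as truncated forms without the kinase. The counts pool all transcripts of a gene, so full-length and truncated Ntrk2 cannot be told apart.

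Samples held 13763106 to 18632301 counts and 17584 to 18003 detected genes. In each group replicates 1 and 2 were NovaSeq X Plus libraries and replicate 3 a DNBSEQ-T7 library, so the platforms were balanced over the groups. Control replicate 1 stood apart from the other controls on the second principal component, which held 11.6% of the variance (84.9 against -34.1 and -55.9). All 8 Schwann cell markers listed were detected in each group, as fits the label sciatic nerve. The 8 neuron markers summed to only 1.56 to 8.89 CPM per sample over all groups, and Elavl4 and Scn10a were at 0 in the controls. CPM is a gene's share of all counts in a sample on a common scale, here adjusted by TMM (trimmed mean of M values). Levels are given in the order of replicates 1, 2 and 3. Differences are log2 fold changes ± SE from edgeR's quasi-likelihood test with 3 samples per group, and a call means that p, adjusted by Benjamini-Hochberg over 15712 genes, was under 0.05. The comparisons share groups, so their values are not independent of each other. Genes differ in length, and levels are compared between groups and not between genes.

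In CC4:2 stumps, the neurotrophin Ntf3 and the receptors Ngfr, Ntrk2 and Gfra1 were higher than in Control and Bdnf was lower. Of the 7 tested members 4 were called higher, beside 20.3% of all genes tested, and 1 was called lower, beside 23.2% of all genes. The median log2 fold change of the 7 was 2.15, and that of all genes tested was -0.045. The members were chosen with earlier results of these data known, so the values of all genes are a background and not a test. Of the 4 genes that rose, 3 are receptors, and the pair not called, Ntrk3 and Gfra3, are receptors as well.

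Ntf3 was at 0.281, 0.390 and 0.485 CPM in Control and at 1.75, 1.52 and 1.88 CPM in CC4:2. CC4:4 stumps held 0.469, 0.203 and 0.274 CPM, and VP4:2 stumps 0.658, 0.806 and 1.14 CPM. Every CC4:2 sample lay above every sample of the other groups, the VP4:2 samples lay between, and Control and CC4:4 overlapped. The gene rose by 2.15 ± 0.415 in CC4:2 against Control (adjusted p = 0.0022), from 0.385 ± 0.102 to 1.72 ± 0.180 CPM (SD, n = 3). Against CC4:4 the difference was 2.40 ± 0.418 (adjusted p = 0.0016). These levels rest on few reads, 27 to 36 counts per CC4:2 sample and 3 to 8 per Control or CC4:4 sample. In order of the mean, CC4:2 was followed by VP4:2, Control and CC4:4, and no pair of neighbours in that order was called. The difference of VP4:2 from CC4:2 was -0.98 ± 0.379 (adjusted p = 0.16), and that of VP4:2 from Control was 1.17 ± 0.42 (adjusted p = 0.075).

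Bdnf ran the other way. It was at 4.11, 0.547 and 0.888 CPM in Control and at 0, 0.169 and 0.470 CPM in CC4:2. CC4:4 samples were close together at 2.17, 2.24 and 2.33 CPM, and VP4:2 samples held 1.04, 1.18 and 0.811 CPM. All CC4:2 samples were the lowest of the series, and the highest value was that of Control replicate 1, the library that stood apart. The CC4:2 sample at 0 allows up to 0.159 CPM, the level of 3 counts, a limit that covers counting error only. Bdnf fell by 3.09 ± 0.918 on the log2 scale in CC4:2 against Control (adjusted p = 0.02), and without Control replicate 1 that difference was -1.70 (adjusted p = 0.11). Without CC4:2 replicate 2 the call was also lost (-2.96, adjusted p = 0.062). Against CC4:4, whose 3 samples had an SD of only 0.0774 CPM, the fall was 3.34 ± 0.919 (adjusted p = 0.015), or -3.21 (adjusted p = 0.052) when CC4:2 replicate 2 was left out. Leaving out CC4:2 replicate 3, the highest of its group, gave -4.39 against Control (adjusted p = 0.013) and -4.64 against CC4:4 (adjusted p = 0.012). Control carried 7 to 73 counts of Bdnf per sample and CC4:2 carried 0 to 9. In order of the mean, CC4:4 was followed by Control, VP4:2 and CC4:2, and no pair of neighbours was called. CC4:4 against Control gave 0.254 ± 0.782 (adjusted p = 0.99), and 1.64 (adjusted p = 0.25) without Control replicate 1. VP4:2 did not overlap CC4:2, at a difference of 2.20 ± 0.919 (adjusted p = 0.19).

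Gdnf and Artn were near the limit of detection in every group. The counts of Gdnf were 4, 0 and 3 for Control, 0, 4 and 2 for CC4:2, 0, 1 and 0 for CC4:4, and 4, 5 and 0 for VP4:2. Samples at 0 allow up to 0.159 to 0.234 CPM, and every sample of Gdnf was at or under 0.269 CPM. Those of Artn were 5, 4 and 2 for Control, 2, 4 and 7 for CC4:2, 8, 7 and 3 for CC4:4, and 16, 3 and 7 for VP4:2, and the groups overlapped in each comparison. With the filter on low counts removed, Gdnf had adjusted p values of 0.39 to 1 and Artn of 0.47 to 0.96 over the 6 comparisons. No difference in either ligand was detected at these counts, and the smallest difference that could have been detected was not computed.

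**Figure D1:**
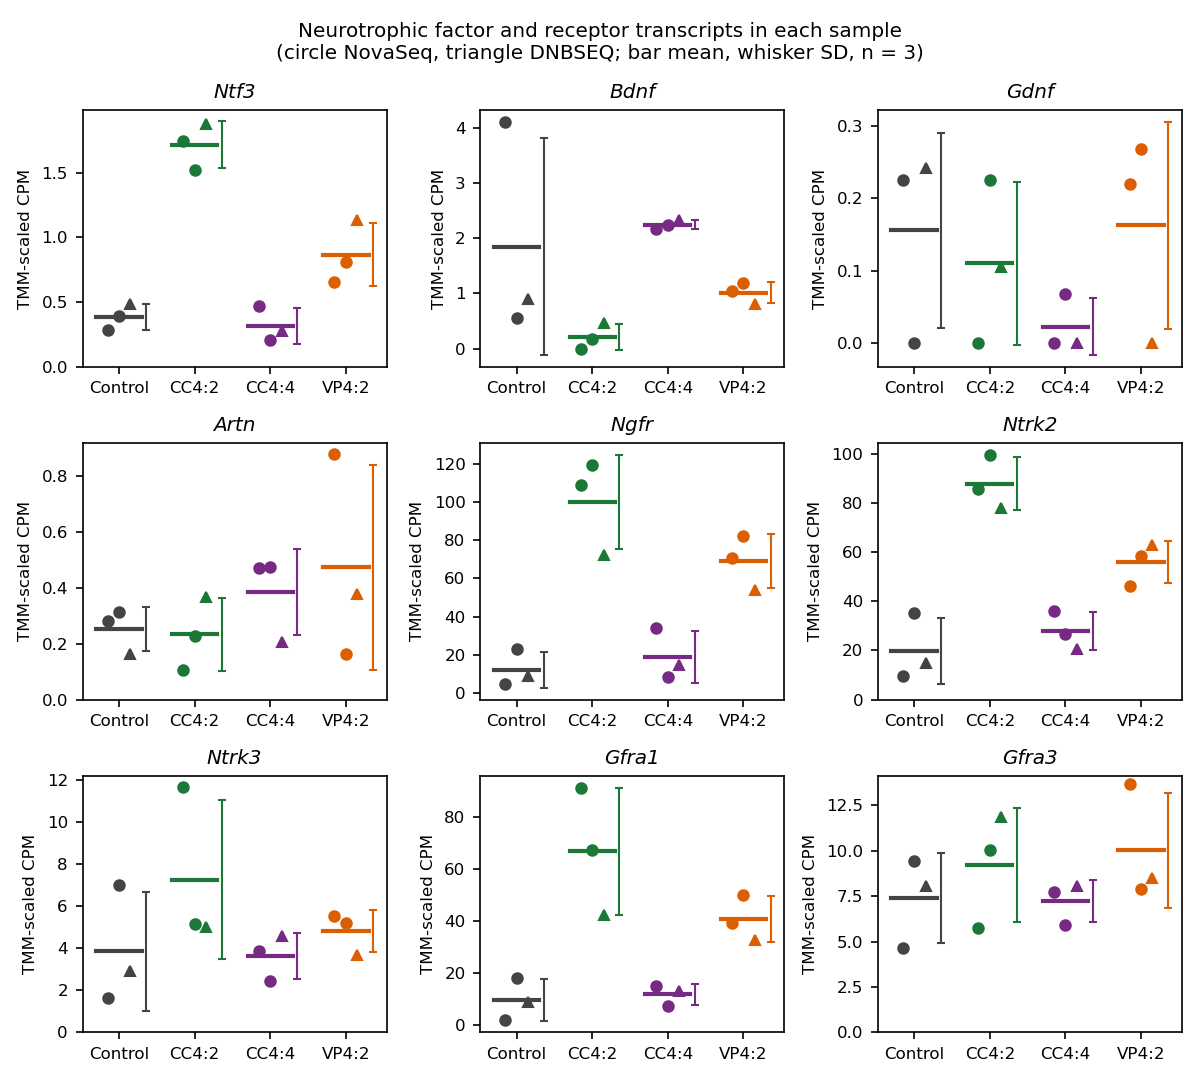
TMM-scaled CPM of the 9 genes in each of 12 stumps (y axes, 1 scale per gene) by group (x axis). Circles are NovaSeq and triangles DNBSEQ samples, bars are group means and whiskers are SD of 3 samples. Ngfr, Ntrk2, Gfra1 and Ntf3 are highest in CC4:2, Bdnf is lowest there, and Gdnf stays at or under 0.269 CPM.

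Among the receptors, Ngfr was at 5.005, 23.0 and 8.88 CPM in Control, 109 and 119 CPM in the first 2 CC4:2 samples, and 72.2 CPM in the third. CC4:4 held 34.3, 8.33 and 14.7 CPM, and VP4:2 held 70.9, 82.2 and 54.2 CPM. Both 4:2 groups lay wholly above Control and CC4:4, and they overlapped each other. Ngfr rose by 3.03 ± 0.598 in CC4:2 against Control (adjusted p = 0.0025), from 12.3 ± 9.45 to 99.9 ± 24.6 CPM (SD, n = 3). It was higher by 2.38 ± 0.579 in CC4:2 against CC4:4 (adjusted p = 0.0085). VP4:2 exceeded Control by 2.50 ± 0.587 (adjusted p = 0.017). Without Control replicate 2, the highest control, the differences from Control were 3.87 for CC4:2 and 3.34 for VP4:2, and without CC4:4 replicate 1 that of CC4:2 from CC4:4 was 3.12, all called. Without Control replicate 1, the lowest control, they were smaller, 2.65 for CC4:2 and 2.12 for VP4:2, both called. Without CC4:4 replicate 2 that of CC4:2 from CC4:4 was 2.02, also called. The call in VP4:2 against Control was lost without Control replicate 3 (2.33, adjusted p = 0.071) or VP4:2 replicate 2 (2.36, adjusted p = 0.054). The order of means was CC4:2, VP4:2, CC4:4 and Control, with differences between neighbours of -0.532 ± 0.549 for VP4:2 against CC4:2 (adjusted p = 0.61), 1.85 ± 0.57 for VP4:2 against CC4:4 (adjusted p = 0.059) and 0.647 ± 0.566 for CC4:4 against Control (adjusted p = 0.98).

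Gfra1 had the same order of groups. Its level was 2.14, 18.0 and 9.05 CPM in Control, 91.2, 67.6 and 42.4 CPM in CC4:2, 15.1, 7.45 and 13.3 CPM in CC4:4, and 39.3, 50.3 and 33.0 CPM in VP4:2. The lowest CC4:2 sample lay above the highest Control and CC4:4 samples, and below the highest VP4:2 sample. Gfra1 rose by 2.79 ± 0.603 in CC4:2 against Control (adjusted p = 0.0041) and by 2.48 ± 0.592 against CC4:4 (adjusted p = 0.0078). VP4:2 exceeded Control by 2.08 ± 0.589 (adjusted p = 0.033), and its difference from CC4:2 was -0.714 ± 0.559 (adjusted p = 0.48). VP4:2 against CC4:4 gave 1.77 ± 0.58 (adjusted p = 0.072). Without Control replicate 2, CC4:2 differed from Control by 3.61 and VP4:2 by 2.90, and without Control replicate 1 by 2.30 and 1.60, all called. The call in VP4:2 against Control was lost without Control replicate 3 (2.05, adjusted p = 0.1) or any of VP4:2 replicates 1 (2.11, adjusted p = 0.077), 2 (1.90, adjusted p = 0.097) and 3 (2.21, adjusted p = 0.059).

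Ntrk2 was at 9.39, 35.1 and 14.9 CPM in Control and at 85.8, 99.6 and 78.1 CPM in CC4:2. In CC4:4 it was at 35.97, 26.8 and 20.7 CPM, and in VP4:2 at 46.3, 58.4 and 62.8 CPM. No VP4:2 sample reached the lowest CC4:2 sample or fell to the highest of the other groups, so the 3 levels were stepped, with Control and CC4:4 overlapping. The rise in CC4:2 was 2.16 ± 0.404 against Control (adjusted p = 0.0019), from 19.8 ± 13.5 to 87.9 ± 10.9 CPM (SD, n = 3), and 1.66 ± 0.396 against CC4:4 (adjusted p = 0.0079). VP4:2 exceeded Control by 1.5 ± 0.397 (adjusted p = 0.026). Without Control replicate 2 these differences from Control were 2.88 and 2.22, and without Control replicate 1 they were 1.82 and 1.16, all called. That of VP4:2 was not called without Control replicate 3 (1.35, adjusted p = 0.099) or without VP4:2 replicate 1 (1.62, adjusted p = 0.053), 2 (1.47, adjusted p = 0.073) or 3 (1.41, adjusted p = 0.072). The steps between VP4:2 and CC4:2 (-0.654 ± 0.386, adjusted p = 0.35) and between VP4:2 and CC4:4 (1.00 ± 0.391, adjusted p = 0.12) were not called.

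Ntrk3 and Gfra3 were not called in any of the 6 comparisons. Ntrk3 was at 1.63, 7.03 and 2.91 CPM in Control, 11.7, 5.13 and 5.01 in CC4:2, 3.87, 2.44 and 4.58 in CC4:4, and 5.54, 5.21 and 3.68 in VP4:2. The highest control lay above 2 of the 3 CC4:2 samples, and the difference between these groups was 0.922 ± 0.514 (adjusted p = 0.17). Without Control replicate 2 it was 1.70 (adjusted p = 0.019). CC4:2 and CC4:4 did not overlap, at a difference of 0.999 ± 0.514 (adjusted p = 0.15). Gfra3 was at 4.67, 9.45 and 8.08 CPM in Control, 5.77, 10.04 and 11.9 in CC4:2, 7.75, 5.90 and 8.07 in CC4:4, and 13.7, 7.90 and 8.49 in VP4:2. Its groups overlapped in all 6 comparisons, and its largest difference, of VP4:2 from CC4:4, was 0.467 ± 0.338 (adjusted p = 0.4).

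**Figure D2:**
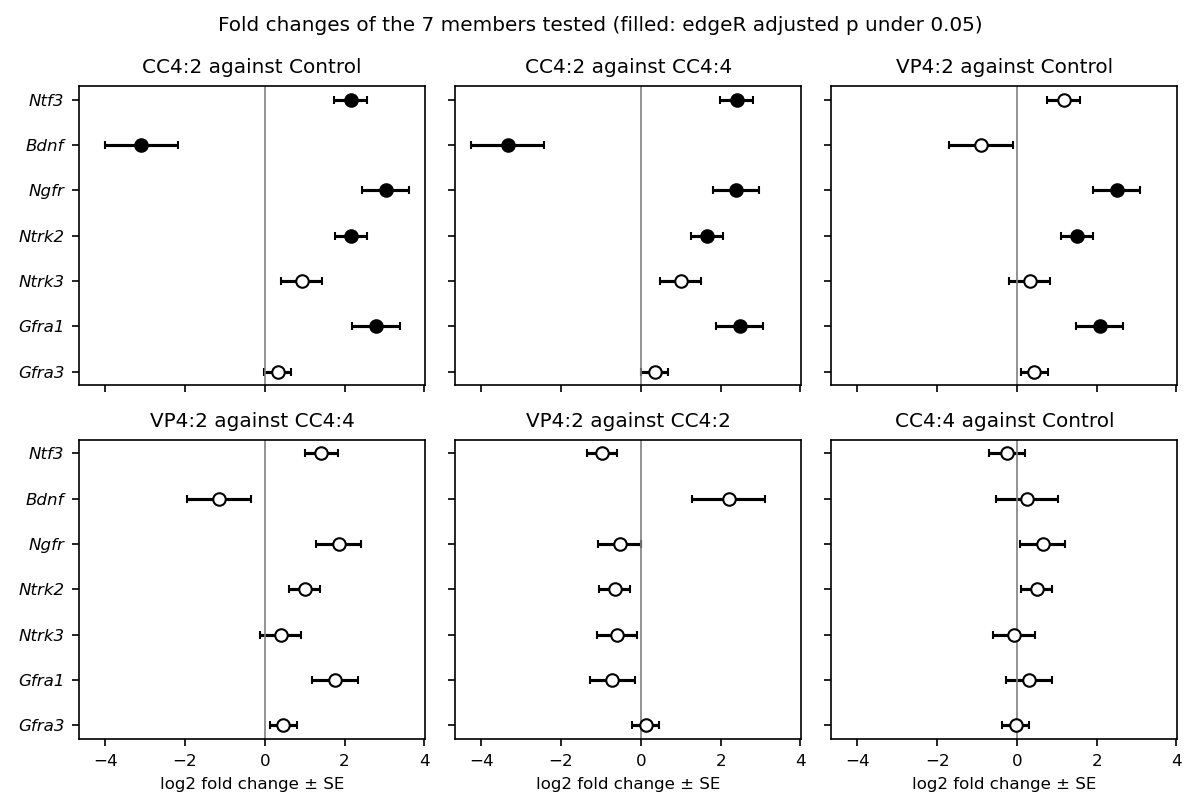
Log2 fold change (x axis, first group minus second) of the 7 tested genes in the 6 comparisons, with SE as whiskers. Filled points have an edgeR adjusted p under 0.05. Ntf3, Ngfr, Ntrk2 and Gfra1 are filled on the right and Bdnf on the left in both CC4:2 panels, and no point is filled in VP4:2 against CC4:2, VP4:2 against CC4:4 or CC4:4 against Control.

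The call counts of the other comparisons were as follows. The comparison of the 2 conduit shapes, CC4:2 against CC4:4, called the 5 genes that CC4:2 against Control had called, 4 of 7 higher (18.5% of all genes) and 1 lower (20.7%). Their median was 1.66, and 0.0081 over all genes. CC4:4 against Control called 0 of 7 members with edgeR, DESeq2 and limma-voom, and 0 had an unadjusted p under 0.05. Over all genes edgeR called 0% higher and 0% lower there, 830 genes had an unadjusted p under 0.05, DESeq2 called 10 and limma-voom 0. Without Control replicate 1, edgeR called 295 genes.

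Verteporfin was compared within the 4:2 conduit. VP4:2 against CC4:2 called 0 of 7 members with edgeR, DESeq2 and limma-voom, while edgeR called 5.23% of all genes higher and 0.999% lower. Bdnf and Ntf3 were the 2 of 7 members with an unadjusted p under 0.05, beside 3475 of all 15712 genes tested. Bdnf went toward higher and Ntf3 toward lower values in VP4:2. In 3 genes (Bdnf, Ntf3 and Ntrk2) the groups did not overlap, and the share of all genes that did so was not computed. Samples of the same number were treated as pairs, which the labels do not state and the data cannot show. VP4:2 was lower in 3 of 3 pairs for Ntf3, Ngfr, Ntrk2 and Gfra1 and higher in 3 of 3 for Bdnf. The pair directions of all genes were not computed, so these counts have no background. For Bdnf, Ntf3 and Ntrk2 any pairing gives 3 of 3, because the groups did not overlap. Ntrk3 and Gfra3 were lower in 2 pairs and higher in 1. With the replicate block, 0 members were called. The median difference of the 7 was -0.595, and -0.027 over all genes. VP4:2 against Control called 3 of 7 higher, all receptors (Ngfr, Ntrk2 and Gfra1), beside 9.30% of all genes, and 0 lower beside 9.57%. The count of 3 became 0 without Control replicate 3 or VP4:2 replicate 2, and 1 without VP4:2 replicate 1 or 3. VP4:2 against CC4:4 called 0 with edgeR, which called 5.70% of all genes higher and 5.51% lower. DESeq2 called 2 there (Ngfr and Gfra1), beside 1569 genes higher and 1514 lower. With limma-voom the same 2 were called, beside 918 genes higher and 841 lower. With edgeR, 4 of the 7 members had an unadjusted p under 0.05, beside 4502 of all 15712 genes tested. Without CC4:4 replicate 1, edgeR called Ngfr there (2.59, adjusted p = 0.037).

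Within the 8 NovaSeq samples, CC4:2 differed from Control by 3.04 for Ngfr, 2.07 for Ntrk2, 2.29 for Ntf3 and -4.68 for Bdnf, all called, and by 2.99 for Gfra1 (adjusted p = 0.05, not called). In these samples CC4:2 against CC4:4 gave 2.22 for Ntf3 and -4.63 for Bdnf, both called. It gave 2.40 for Ngfr (adjusted p = 0.077), 1.55 for Ntrk2 (adjusted p = 0.086) and 2.79 for Gfra1 (adjusted p = 0.059). VP4:2 against Control gave 2.47 for Ngfr (adjusted p = 0.17), 1.25 for Ntrk2 (adjusted p = 0.26) and 2.17 for Gfra1 (adjusted p = 0.22). The DNBSEQ samples were 1 per group, with no test, and are the replicate 3 values above. There the same 4 genes were higher in CC4:2 than in Control. Bdnf was at 0.470 against 0.888 CPM, a gap that rests on 9 against 11 counts.

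Because the tissue is bulk, fewer cells of a type and less RNA per cell cannot be told apart. The cell type markers differed in direction between CC4:2 and Control. Schwann, perineurial and adipocyte sums were higher in CC4:2, and macrophage and T cell sums were lower, as given below. Of the lists not described below, 4 of 6 fibroblast, 1 of 5 endothelial, 1 of 6 pericyte and smooth muscle and 0 of 4 skeletal muscle markers were called higher. In those lists 0 were called lower. The 8 Schwann cell markers summed to 299 to 3410 CPM in Control (median 1920), 9840 to 25700 in CC4:2, 1870 to 2470 in CC4:4 and 9080 to 13400 in VP4:2. All 8 were called higher in CC4:2 against Control and against CC4:4, 5 in VP4:2 against Control, 3 in VP4:2 against CC4:4 and 0 in VP4:2 against CC4:2. Perineurial markers (4 of 5 matched, Lypd2 at 0) went from 179 to 733 CPM in Control to 3720 to 4250 in CC4:2, 303 to 512 in CC4:4 and 1450 to 2020 in VP4:2. Macrophage markers (7 genes) summed to 4620 to 10900 CPM in Control, 1330 to 1710 in CC4:2, 4290 to 5010 in CC4:4 and 3300 to 5440 in VP4:2. Lyz2 made up most of the Control sum, with a mean of 5704 CPM there and 697.5 in CC4:2. Of the 7, 4 were called lower in CC4:2 against Control and 3 higher in VP4:2 against CC4:2. Csf1r, Mrc1 and Cd163 were not called in CC4:2 against Control, and the mean of Cd163 was higher in CC4:2 (106.1 against 93.97 CPM). The 8 neuron markers summed to 2.67 to 3.66 CPM in Control, 4.51 to 8.89 in CC4:2, 1.56 to 3.35 in CC4:4 and 3.73 to 6.02 in VP4:2. Of the 6 repair Schwann cell markers, 3 were higher and 1 (Runx2) lower in CC4:2 against Control, with sums of 123 to 148 CPM in Control, 151 to 207 in CC4:2, 95.8 to 143 in CC4:4 and 148 to 180 in VP4:2. The 4 adipocyte markers were all called higher in CC4:2 and in VP4:2 against Control, with sums of 36.7 to 60.2 CPM in Control, 442 to 1310 in CC4:2, 72 to 487 in CC4:4 and 332 to 935 in VP4:2. The 3 T cell markers were all called lower in the same comparisons, with sums of 68.5 to 147, 4.34 to 15.5, 75.7 to 135 and 24.8 to 34.6 CPM in that order of groups. The part of these cell types in the results was not tested.

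The levels were also divided by that of Sox10, a transcription factor of the Schwann lineage, in the same sample, a description chosen after seeing the data. Sox10 itself was at 2.76, 40.1 and 13.7 CPM in Control, 234, 215 and 109.5 in CC4:2, 30.2, 12.8 and 15.7 in CC4:4, and 112, 133 and 63.6 in VP4:2. Ngfr per Sox10 was 0.573 to 1.82 in Control, 0.464 to 0.659 in CC4:2, 0.651 to 1.13 in CC4:4 and 0.62 to 0.852 in VP4:2. Relative to Sox10, then, CC4:2 was not the highest group for Ngfr. Gfra1 per Sox10 was 0.45 to 0.776 in Control, 0.315 to 0.389 in CC4:2, 0.501 to 0.852 in CC4:4 and 0.35 to 0.519 in VP4:2. Ntrk2 per Sox10 was 0.875 to 3.41 in Control, 0.366 to 0.713 in CC4:2, 1.19 to 2.09 in CC4:4 and 0.413 to 0.986 in VP4:2. For Gfra1 and Ntrk2, CC4:2 thus lay wholly below Control, and this held for Ntrk3, Gfra3 and Bdnf too. Sox10 itself rose by 3.31 ± 0.767 in CC4:2 against Control (edgeR adjusted p = 0.0059). The mean CPM of Ntrk3 and Gfra3, not called there, was not lower in CC4:2, so their lower ratios follow from the divisor. For Bdnf, whose own level fell, the level and the divisor both moved the ratio down. Ntrk3 per Sox10 was 0.175 to 0.592 in Control and 0.0239 to 0.0497 in CC4:2, and Gfra3 per Sox10 was 0.236 to 1.69 in Control and 0.0246 to 0.108 in CC4:2. Bdnf per Sox10 was 0.0136 to 1.49 in Control and 0 to 0.00429 in CC4:2. Ntf3 per Sox10 overlapped between these groups, at 0.00975 to 0.102 in Control and 0.00709 to 0.0172 in CC4:2. These ratios share Sox10 as the divisor, so they move together.

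**Figure D3:**
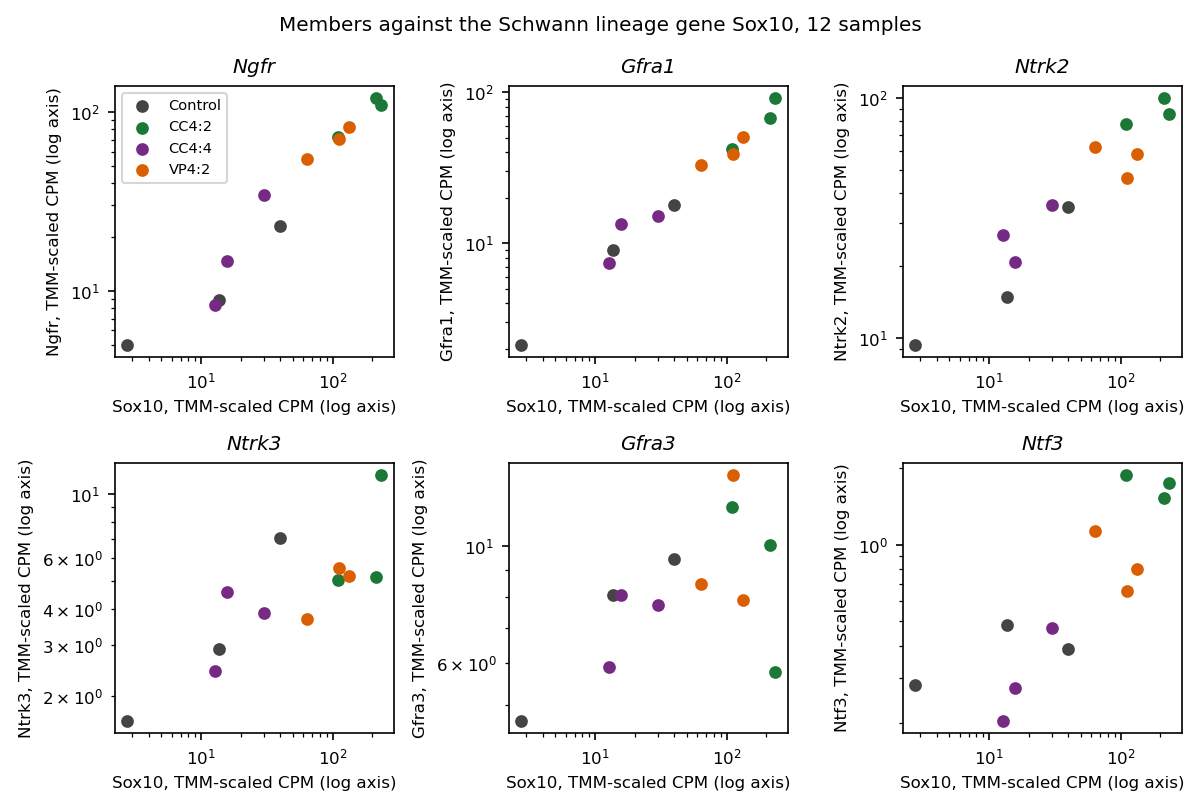
Each of 6 members (y axis) against Sox10 (x axis), both as TMM-scaled CPM on log axes, 1 point per stump, coloured by group. Ngfr and Gfra1 lie near a line over all 12 stumps, while Gfra3 spans 4.67 to 13.7 CPM with its groups mixed.

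Of 40 other genes of the pathway, listed by role, 37 were tested, and CC4:2 against Control called 10 higher and 4 lower, beside 20.3% and 23.2% of all genes. The GDNF family receptor genes Gfra2 (the neurturin co-receptor, 2.45 ± 0.423, adjusted p = 0.0012) and Ret (the shared kinase, 1.51 ± 0.456, adjusted p = 0.021) rose, as did Sort1 (sortilin, which partners p75NTR in binding pro-neurotrophins, 1.36 ± 0.196, adjusted p = 0.00046), Sorcs1 (a sortilin relative, 3.11 ± 0.754, adjusted p = 0.0074) and Sdc3 (syndecan-3, a proteoglycan that binds GDNF, 2.17 ± 0.326, adjusted p = 0.00055). These were 5 of 8 receptor or co-receptor genes tested. The Ret call was lost without Control replicate 1 (adjusted p = 0.058), Control replicate 3 (0.059) or CC4:2 replicate 2 (0.902, adjusted p = 0.1). Ret was also not called with limma-voom (1.36, adjusted p = 0.052) or in the NovaSeq samples alone (1.84, adjusted p = 0.053). With only the groups compared in the fit it was not called either (1.52, adjusted p = 0.058). The Sorcs1 call was lost in the NovaSeq samples alone (3.34, adjusted p = 0.07). Without Control replicate 2, Sorcs1 gave 4.04. The 14 calls became 8 in the NovaSeq samples alone.

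Of the 3 other ligands tested, Ntf4 (neurotrophin-4, a TrkB ligand) fell by 2.71 ± 0.507 (adjusted p = 0.0019), from 0.866 ± 0.281 to 0.125 ± 0.0275 CPM (SD, n = 3), the latter from 2 to 3 counts per sample. Of 8 genes that cut or control the cutting of pro-neurotrophins, 1 rose, the proprotein convertase gene Pcsk6 (2.12 ± 0.383, adjusted p = 0.0016). Of 18 signalling adaptors, 4 rose (Shc4, Gab1, Dok4 and Kidins220, the last by 0.47) and 3 fell (Shc1, Grb2 and Sh2b2). The Shc1 call (-0.612, adjusted p = 0.041) was lost without Control replicate 1 (-0.322, adjusted p = 0.15), CC4:2 replicate 1 (-0.477, adjusted p = 0.13) or CC4:2 replicate 3 (-0.598, adjusted p = 0.093). That of Sh2b2 (-1.32, adjusted p = 0.029) was lost without Control replicate 3 (-0.924, adjusted p = 0.14), CC4:2 replicate 1 (-1.01, adjusted p = 0.086) or CC4:2 replicate 3 (-1.21, adjusted p = 0.086). In the NovaSeq samples alone these were not called either, nor were Kidins220 (0.413, adjusted p = 0.16) and Grb2 (-0.625, adjusted p = 0.064). With only the groups compared in the fit, Shc1 (adjusted p = 0.15), Sh2b2 (0.086) and Kidins220 (0.066) lost their calls. Shc1 was also not called with total counts, no filter, the replicate block or the platform term (adjusted p of 0.054 to 0.15).

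In VP4:2 against Control, 7 of the 37 were higher and 1 was lower, beside 9.30% and 9.57% of all genes. Gfra2 was higher by 1.63 ± 0.413 (adjusted p = 0.022), Sort1 by 1.03 ± 0.195 (adjusted p = 0.0078) and Sdc3 by 1.70 ± 0.321 (adjusted p = 0.0078), and Ntf4 was lower (-1.74 ± 0.468, adjusted p = 0.028). Gfra2 was not called without VP4:2 replicate 1 (1.60, adjusted p = 0.064) or 2 (1.55, adjusted p = 0.069), and of the fits with a replicate left out only that without Control replicate 1 called Ntf4 (-1.94, adjusted p = 0.019). None of these 8 was called in the NovaSeq samples alone, where Sort1 gave 0.93 (adjusted p = 0.11) and Sdc3 1.76 (adjusted p = 0.083). The 8 calls became 13 without Control replicate 1, 5 without VP4:2 replicate 1 and 4 without VP4:2 replicate 2. CC4:2 against CC4:4 called 11 higher and 2 lower, beside 18.5% and 20.7% of all genes, and 6 in the NovaSeq samples alone. VP4:2 against CC4:4 called 5 higher and 1 lower, beside 5.70% and 5.51%, but 0 in the NovaSeq samples alone, 0 without CC4:4 replicate 2, 2 without VP4:2 replicate 1, 1 without VP4:2 replicate 2 and 4 without CC4:4 replicate 3. With edgeR, 0 of the 37 were called in VP4:2 against CC4:2, and 2 without CC4:2 replicate 1. Unadjusted p was under 0.05 for 7 of the 37 there, beside 3475 of all 15712 genes tested. In that comparison DESeq2 called 4, beside 1319 genes higher and 542 lower, and limma-voom called 0. With the replicate block edgeR called 1 there, Pcsk6 (-1.34, adjusted p = 0.05 after rounding), a gene singled out after its value was seen. In CC4:4 against Control, 0 were called by edgeR, DESeq2 or limma-voom, while edgeR called 2 without Control replicate 1. There 1 of the 37 had an unadjusted p under 0.05 in the full fit, beside 830 of all 15712 genes tested.

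**Figure D4:**
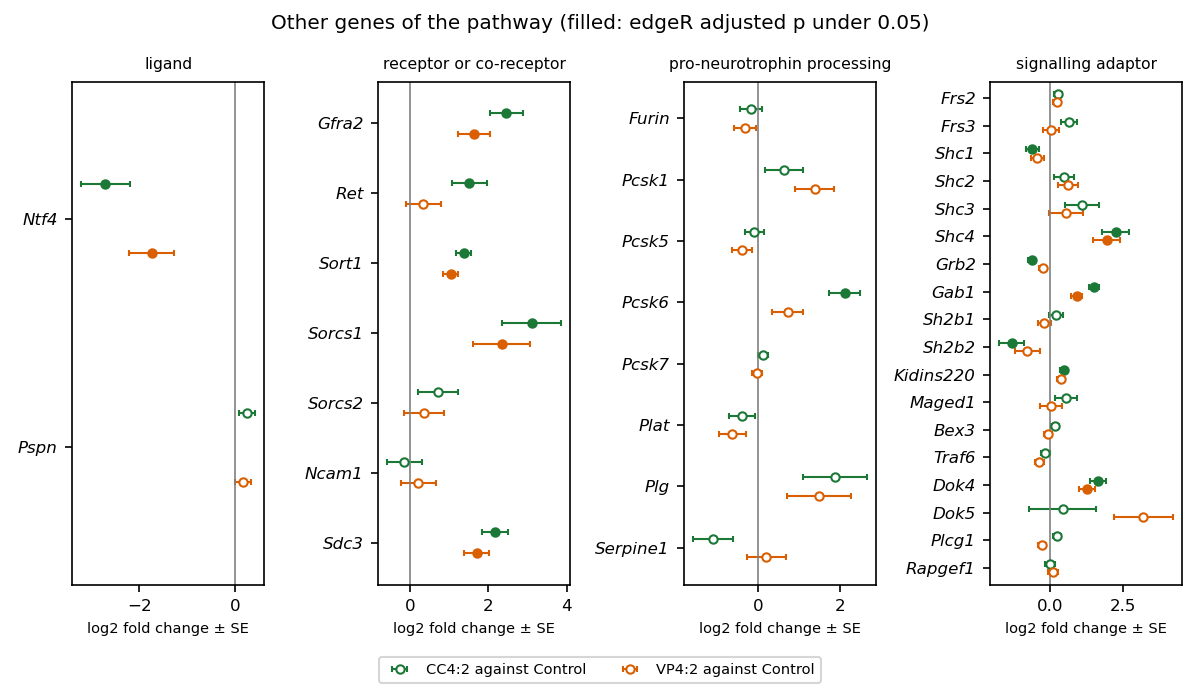
Log2 fold change (x axis) with SE for the tested pathway genes other than the 9, by role, apart from 2 not reported here, for CC4:2 against Control (green) and VP4:2 against Control (orange). Filled points have an edgeR adjusted p under 0.05. Gfra2, Sort1, Sorcs1 and Sdc3 are filled to the right and Ntf4 to the left in both.

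Promoter sequence was looked at for the ligands that moved in opposite directions, Ntf3 and Bdnf, and for Gfra1. Windows were the 250 bases before each start that the reference held (RefSeq, GRCr8). The reference held 13 such windows for 6 of the 9 genes, those of Ntf3, Bdnf, Gdnf, Artn, Gfra1 and Gfra3. These are not 13 separate sequences. The Ntf3 windows chr4:160670624-160670873 and chr4:160670623-160670872 overlap, as do the Bdnf windows chr3:116639552-116639801 and chr3:116639608-116639857. The Gfra1 and Artn windows lie inside the annotated genes. Their outermost positions on the minus strand, chr1:267557037 and chr5:136755645, had no window in the reference. The outermost window of Ntf3 and Bdnf and that of Gfra1 are shown 5′ to 3′ with CG dinucleotides in capitals:
Ntf3 (chr4:160670624-160670873, minus strand): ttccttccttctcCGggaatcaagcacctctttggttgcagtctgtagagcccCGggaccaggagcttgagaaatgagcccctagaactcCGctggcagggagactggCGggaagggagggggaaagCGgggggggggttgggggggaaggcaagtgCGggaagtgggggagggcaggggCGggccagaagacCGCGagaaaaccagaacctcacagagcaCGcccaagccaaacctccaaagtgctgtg
Bdnf (chr3:116619383-116619632, plus strand): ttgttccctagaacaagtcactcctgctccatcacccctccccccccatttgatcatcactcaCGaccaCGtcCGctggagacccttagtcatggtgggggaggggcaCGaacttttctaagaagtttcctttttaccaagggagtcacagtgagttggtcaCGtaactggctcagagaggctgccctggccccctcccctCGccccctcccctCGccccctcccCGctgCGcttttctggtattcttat
Gfra1 (chr1:267555812-267556061, minus strand): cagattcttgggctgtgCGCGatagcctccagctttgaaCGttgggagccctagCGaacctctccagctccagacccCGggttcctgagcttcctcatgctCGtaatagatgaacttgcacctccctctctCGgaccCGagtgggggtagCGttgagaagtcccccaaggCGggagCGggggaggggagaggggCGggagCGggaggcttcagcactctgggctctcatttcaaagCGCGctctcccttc
They held 10, 9 and 15 CG dinucleotides, and the median over all 33469 windows was 5. The motif GGAATG (TEAD factors, which verteporfin keeps from YAP), searched on both strands, was in 0 of the 13 windows, and 12.1% of all windows hold it. The motif TGANTCA (AP-1), also on both strands, was in 1 of the 13 windows, beside 6.34% of all windows. That match lay at the third start of Bdnf, and starts 152 bases before it, with the motif in capitals:
Bdnf (chr3:116621808-116621836, plus strand): atccacaaaaaTGAATCAaggtaatttca
The 2 motifs share no match in these windows, and a match or its absence describes only these letters in these windows.

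For each tested member, the genes nearest in pattern over the 12 samples were found by the root mean square (RMS) difference of centred log2 CPM, among 12990 candidates. Nearest to Ngfr was Col28a1, a collagen chain gene, at 0.271, beside an SD of 1.58 for Ngfr. Nearest to Gfra1 were Myoc (myocilin, a secreted glycoprotein, 0.235) and Ttyh1 (a membrane protein, 0.239), with an SD of 1.53 for Gfra1. For Ntrk2 these were Syde2 (0.238) and Abtb3 (0.259). For Ntf3 they were the transcription factor gene Hlf (0.263) and Nr1d1, the circadian repressor REV-ERB alpha (0.267). Nearest to Bdnf was Chsy3, a chondroitin sulfate synthase gene, at 0.39, and the next Gpr182 at 0.451. Ntrk3 was nearest C10h17orf58 (0.315) and Ccdc163 (0.317), and Gfra3 was nearest Itpr1, a calcium release channel gene (0.275), and Trim68 (0.276), beside SDs of 0.711 and 0.431. Over 14 other settings (RLE, total counts and each sample left out), Col28a1 and Chsy3 stayed among the 2 nearest in 13, and Syde2 in 12. Myoc, Hlf, Nr1d1 and Abtb3 did so in 9 each, and the other genes named in 5 to 7.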

How the data were processed

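Poly(A) RNA of 12 stumps was made into stranded libraries, per the labels' protocols. The authors deposited expected counts per gene. HISAT2, StringTie, RSEM and DESeq2 were used per the submitters' processing notes, and their versions, the genome build and the annotation are not given in the sources used here. All 12 deposited files held the same values, so 1 was read and 11 were not used. Non-whole values made up 9.44% to 11.1% of a sample, and all values were rounded.

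The 15712 genes that passed filterByExpr were tested with edgeR 4.0.16 (limma 3.58.1, R 4.3.3), TMM scaling and 1 fit over the 4 groups with 8 residual degrees of freedom. The SE is the size of the fold change over the square root of the F statistic. The test was checked on simulated counts. Alternatives were RLE scaling, total counts, no filter, DESeq2 1.42.0, limma-voom, a replicate block, a platform term, the NovaSeq samples alone, only the groups compared, and each replicate left out. Log2 CPM for the patterns used a prior count of 2 and candidates with a mean of at least 1 CPM.

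Replicates differed by far more than sampling noise, with chi-square per degree of freedom of 49.7 to 336. Deviations from the group means correlated at 0.12, 0.28 and 0.43 between same-numbered VP4:2 and CC4:2 samples. Every pair was over 0.1, so these numbers were treated as pairs there, from the data and not the labels. No other comparison met this with same numbers. Shifted numbers met it in CC4:4 against Control (0.22, 0.4 and 0.39), and 9 of 36 pairs of different numbers were over 0.1. The rule therefore cannot show that the samples were paired, and replicate 3 was also the DNBSEQ library of each group. Gene identifiers matched no reference entry, so symbols come from the deposited table. Named genes were the 9 members, other pathway genes called somewhere or described by role, and the 2 genes nearest each tested member in pattern; the text names a part of them. The values of 2 pathway genes are not reported here; they remain in the counts of the list. Pathway and marker lists, like the members, were chosen with earlier results of these data known. Sums of the marker lists not given in the report were, as the lowest and highest sample of Control, then of CC4:2, 2020 and 5740, then 4030 and 4850 CPM for fibroblast, 418 and 948, then 713 and 1110 for endothelial cell, 728 and 1560, then 828 and 1560 for pericyte and smooth muscle, and 3.43 and 6040, then 160 and 9340 for skeletal muscle.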

Additional observations from a re-analysis of the deposited data

How the results depend on the processing

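CC4:2 against Control called 4 to 5 of the 7 members under the other settings and 4 to 6 with a replicate left out, and CC4:4 against Control and VP4:2 against CC4:2 called 0 under all. CC4:2 against CC4:4 called 5, 2 in the NovaSeq samples alone and 4 to 5 with a replicate left out. VP4:2 against Control called 3, 0 in the NovaSeq samples alone, 4 with total counts, 1 with only the groups compared in the fit and 0 to 3 with a replicate left out. VP4:2 against CC4:4 called 0, 3 with total counts, 2 with DESeq2, 2 with limma-voom, 4 with only the groups compared and 0 to 1 with a replicate left out. Fits on fewer samples have fewer degrees of freedom, and the cause of the other shifts was not tested. With 1 sample less, the remaining 2 share the spread of all groups. Bdnf in CC4:2 against Control and Ntf3 in CC4:4 against Control did not pass the low-count filter with only the groups compared, which gave no value. Of the member values under all settings, 573 kept direction and call, 24 lost the call, 14 gained it and 17 changed sign.

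All sign changes were in values not called. In CC4:4 against Control these were, with limma-voom, Ntrk3 0.213 and Gfra3 0.0743, and in the NovaSeq samples alone Bdnf -0.0479 and Ntf3 0.0695. The lowest and highest value with a replicate left out were -0.135 and 1.64 for Bdnf, -0.0832 and 1.49 for Ngfr, -0.448 and 0.706 for Ntrk3, -0.171 and 1.14 for Gfra1, and -0.271 and 0.207 for Gfra3. They were -0.169 and 0.341 for Gfra3 in VP4:2 against CC4:2, and -1.28 and 0.495 for Bdnf and -0.0453 and 1.11 for Ntrk3 in VP4:2 against Control.

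Same-numbered samples of different groups had correlated deviations of -0.4 to 0.43. Of 18 such pairs 7 were over 0.1, 3 of these in VP4:2 against CC4:2. Samples of different numbers had -0.42 to 0.4, over 0.1 in 9 of 36 pairs, so the numbers cannot be shown to mark pairs. In VP4:2 against CC4:2 the replicate block changed no member's call (adjusted p of 0.2 to 0.83). In the other comparisons the block gave these changes. CC4:2 against Control called 4 members, without Bdnf (-2.91, adjusted p = 0.054), and VP4:2 against Control called 2, without Gfra1 (2.13, adjusted p = 0.053).

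Over all genes, edgeR called 6835 in CC4:2 against Control (3220 in the NovaSeq samples), 6156 in CC4:2 against CC4:4 (3253), 979 in VP4:2 against CC4:2 (202, and 1861 with DESeq2), 2964 in VP4:2 against Control (19) and 1762 in VP4:2 against CC4:4 (29, and 3321 with only the groups compared). With total counts in place of TMM, the share of calls that were higher went from 46.6% to 63% in CC4:2 against Control, from 47.2% to 65.5% against CC4:4, from 49.3% to 75.5% in VP4:2 against Control and from 50.9% to 80.1% against CC4:4. The median of all genes then moved from -0.045 to 0.16, from 0.0081 to 0.22, from -0.035 to 0.2 and from -0.0068 to 0.24. Members called then numbered 5 in both CC4:2 comparisons, as with TMM, 4 in place of 3 in VP4:2 against Control and 3 in place of 0 in VP4:2 against CC4:4.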
